A study of Drosophila melanogaster with 2 samples.

Results

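ush (FBgn0003963) and cbt (FBgn0043364) share 1 locus on the left arm of the second chromosome of Drosophila melanogaster. On build dm6, ush runs on the plus strand over chr2L:476220-540560, which is 64.3 kb. cbt runs on the minus strand over chr2L:476446-479688, is 3.24 kb long and lies wholly within the first intron of ush-RD and ush-RE, the isoforms with the most distal start. The locus studied here is both genes with 5 kb on each side, and because cbt is nested it equals the ush interval, chr2L:471220-545560. A peak belongs to the locus if its summit lies there. The irreproducible discovery rate (IDR) procedure compares how peaks rank in the replicates, and a peak that passed it need not rank alike in both. Of the 2704 peaks that passed, 11 belong to the locus. Of the 30000 relaxed peaks called on both replicates together, termed the joint list, 45 belong to it. The relaxed lists of the separate replicates, also of 30000 peaks each, hold 41 locus peaks in replicate 2 and 45 in replicate 3. The locus was picked from these same lists for its many IDR summits and for the strong signal beside cbt, so its counts and signals are a description and carry no test.

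All samples come from 1 group, embryos of the CG13123-GFP strain. These flies carry a stable transgene that makes CG13123 with GFP at its C terminus, a fusion that the labels also name CG13123-eGFP. Whole embryos of both sexes were collected at 0 to 24 h of development, chromatin was sonicated to 200 to 800 (no unit is given in the labels), and anti-GFP antibody was used for the precipitation. Biological replicates 2 and 3 were deposited. Per the labels and the file list, the relaxed peaks were called with a control, but its own data were not used here. Neither a control precipitation nor flies without the tagged protein were analysed here, so enrichment that any such precipitation would give cannot be told apart from enrichment by CG13123. Embryos of all these ages and all their cell types were pooled, and strong signal in a few cells cannot be told apart from weak signal in many. Signal is the value the authors' files give for each peak. For its scale and for the read depth nothing is given in the sources used here, so signals were read mainly as ranks within a list, and ratios between the replicates' lists are given as values only.

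ush (u-shaped) encodes a multi-zinc-finger protein of the Friend-of-GATA family, which binds GATA transcription factors such as Pannier and changes their activity. It acts in the amnioserosa during germ band retraction and dorsal closure, in blood cell development and in the patterning of sensory bristles. cbt (cabut) encodes a zinc finger transcription factor related to the vertebrate TGF-beta-inducible early genes, is needed for dorsal closure and takes part in the transcriptional response to dietary sugar. The genes are transcribed towards each other's start, and the sequence upstream of cbt is intron of ush.

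The summit base and 100 bases to each side of it, at 5 of the IDR summits, carry the results that follow and are shown on the plus strand of the Release 6 genome (RefSeq). They are the strongest peak of the locus, its neighbour nearest to the cbt start, the strongest peak away from cbt, the peak with a run of GAGA words, and the peak nearest to the proximal ush starts. Capitals mark matches, on either strand, to the GATA word GATAA, whose reverse complement is TTATC. They also mark the GAGA word GAGAG, whose reverse complement is CTCTC, and the overlapping words ACAGTG and ACACTG. The summit is base 101 of each. In the order listed they lie at chr2L:480986-481186, chr2L:479996-480196, chr2L:485773-485973, chr2L:510556-510756 and chr2L:522035-522235.
summit 481086: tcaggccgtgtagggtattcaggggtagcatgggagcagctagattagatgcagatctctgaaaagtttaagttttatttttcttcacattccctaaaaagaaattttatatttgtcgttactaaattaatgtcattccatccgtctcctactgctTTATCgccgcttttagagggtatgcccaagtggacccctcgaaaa
summit 480096: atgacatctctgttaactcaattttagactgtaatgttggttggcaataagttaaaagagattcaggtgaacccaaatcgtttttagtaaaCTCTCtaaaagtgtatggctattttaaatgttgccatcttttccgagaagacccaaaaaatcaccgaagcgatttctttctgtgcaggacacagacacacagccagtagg
summit 485873: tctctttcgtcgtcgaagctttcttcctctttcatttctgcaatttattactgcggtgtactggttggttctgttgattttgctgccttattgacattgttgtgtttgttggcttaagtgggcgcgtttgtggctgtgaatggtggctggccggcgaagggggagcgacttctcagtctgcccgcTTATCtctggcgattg
summit 510656: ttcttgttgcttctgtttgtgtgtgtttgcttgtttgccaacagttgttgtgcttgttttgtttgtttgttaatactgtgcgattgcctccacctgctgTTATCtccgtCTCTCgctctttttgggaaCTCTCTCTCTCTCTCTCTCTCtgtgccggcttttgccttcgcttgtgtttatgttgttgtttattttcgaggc
summit 522135: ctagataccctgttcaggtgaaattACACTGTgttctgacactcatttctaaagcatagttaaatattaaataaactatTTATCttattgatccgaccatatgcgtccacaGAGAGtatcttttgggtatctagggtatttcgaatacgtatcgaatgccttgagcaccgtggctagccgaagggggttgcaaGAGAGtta

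The peaks of highest signal lay just upstream of cbt. The strongest, over chr2L:480901-481264 with its summit at 481086, is 1398 bp upstream of the common start of cbt-RA, cbt-RB and cbt-RC at 479688. Its signal was 966 in the joint list (rank 9), 584 in replicate 2 (rank 9) and 381 in replicate 3 (rank 10). The highest signals anywhere in those lists were 1992, 1242 and 761. The replicate summits lay 0 and 5 bp from the joint one, so both replicates put this site at the same base to within a few positions and among their 10 strongest.

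A weaker IDR peak stood on each side of it. The summit at 480096, over chr2L:479986-480191 and 408 bp upstream of the cbt start, had a signal of 290 (rank 168) in the joint list, 164 (rank 192) in replicate 2 and 128 (rank 158) in replicate 3. The summit at 481962, 2274 bp upstream of cbt, had 117 (rank 1254) in the joint list. There the replicates were less alike, with 79.4 (rank 972) in replicate 2 and 39.5 (rank 2016) in replicate 3, whose summit was 92 bp away. The 3 summits are 990 and 876 bp apart, and all lie in intron 1 of ush. Each could be counted to either gene by position, and the lists do not say which gene, if any, they act on.

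Within the cbt gene itself no IDR summit was found. The joint list holds 1 relaxed peak there, at 479469, in the first exon of cbt and 219 bp downstream of its start, with a signal of 37.9 (rank 8571). Replicate 2 had 2 peaks in the gene and replicate 3 had 1, with 12.1 (rank 19707) at 479463. The IDR peaks nearest to cbt were thus upstream of its start, with weak relaxed peaks over the gene. With 5 kb on each side, cbt has 4 IDR peaks among 9 joint ones, the fourth being at 472462 beyond the other end of cbt.

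**Figure D1:**
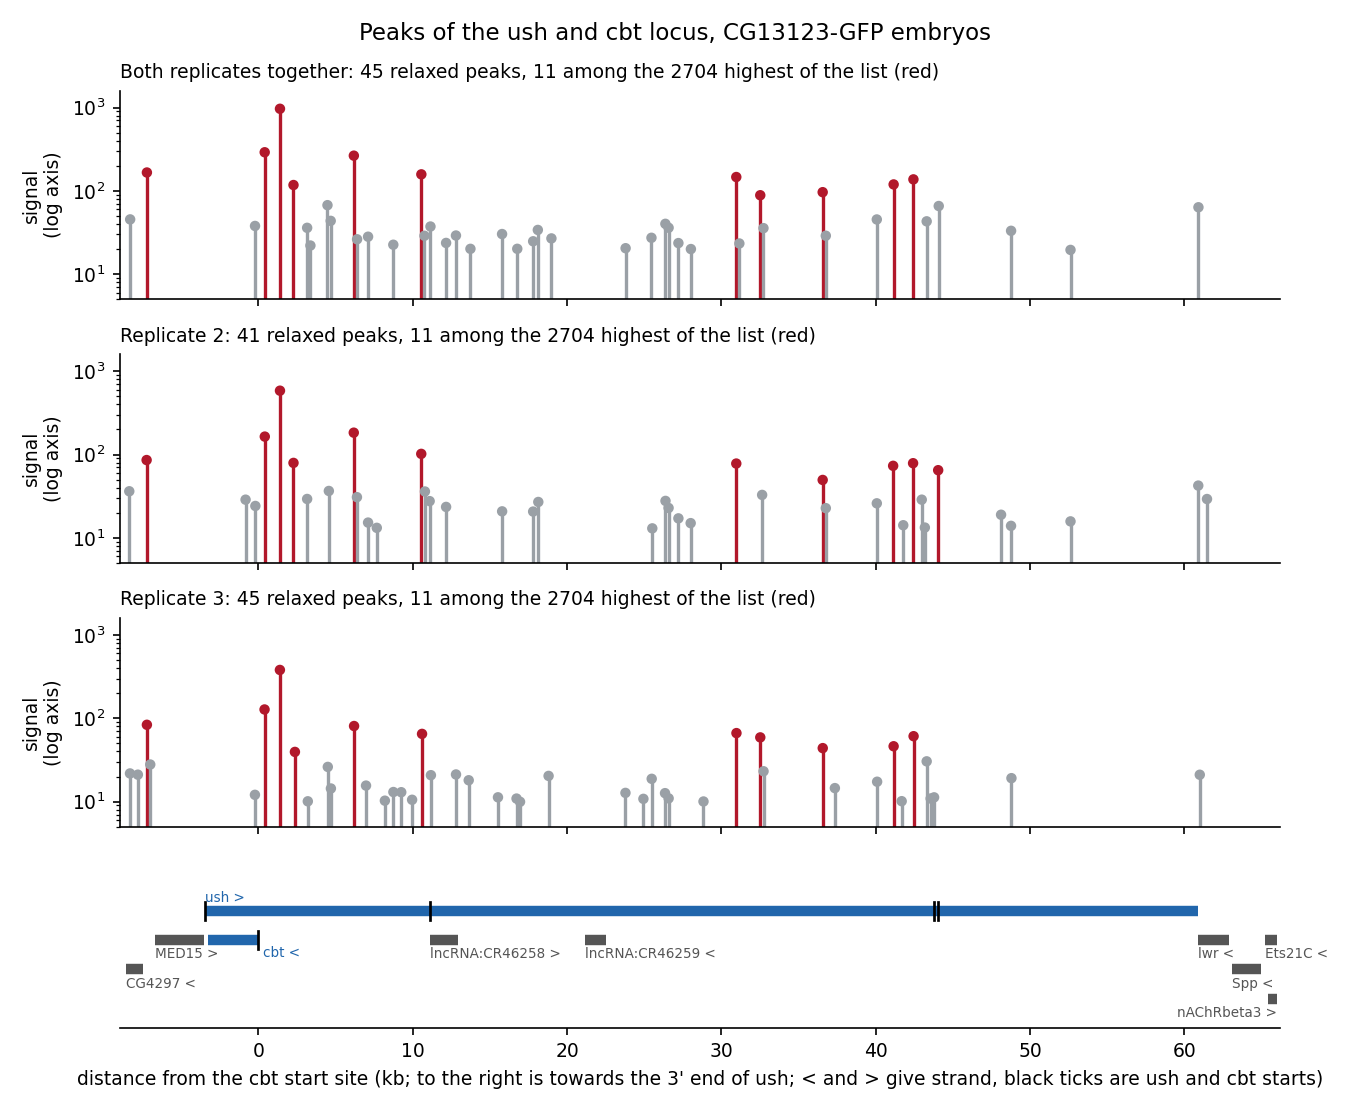
Signal (log axis) of every relaxed peak of the locus against distance from the cbt start in kb, for both replicates together, replicate 2 and replicate 3, with red for peaks among the 2704 highest of each list and the genes drawn to scale beneath. In each panel the tallest line is the peak 1398 bp upstream of cbt (966, 584 and 381), the red peaks within ush lie between the cbt start and the ush-RB start or towards the proximal ush starts, and none lies past 45 kb.

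ush has 4 annotated transcription starts, and none had an IDR summit within 500 bp, the distance taken here as promoter. The distal start at 476220, of ush-RD and ush-RE, had its nearest IDR summit 3758 bp away and its nearest joint peak 3249 bp away. The next start, at 490835, belongs to ush-RB and to the noncoding RNA lncRNA:CR46258. It had a joint summit 3 bp away, but with a signal of only 37.3 (rank 8839). Replicate 2 placed a summit 50 bp and replicate 3 one 32 bp from this start, at ranks 6978 and 6139. A peak at the ush-RB start was thus seen in all relaxed lists, at a low rank in each.

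An IDR peak stood 588 bp upstream of the ush-RB start, at 490247. It lies in the second exon of ush-RD and ush-RE, within the 5' UTR. Its signal was 158 (rank 699) in the joint list, 102 (rank 575) in replicate 2 and 65.0 (rank 753) in replicate 3. Farther upstream, at 485873, was the third strongest IDR peak of the locus. Lying 4962 bp before the ush-RB start, it had 264 (rank 198) in the joint list, 183 (rank 149) in replicate 2 and 80.8 (rank 473) in replicate 3. Its signal in replicate 2 was 2.27 times that in replicate 3, the widest ratio above 1 among the IDR peaks of the locus.

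The proximal starts, 523466 of ush-RA and 523736 of ush-RC, were approached from upstream by 3 IDR peaks. At 522135, which is 1331 bp before ush-RA, the signal was 137 (rank 933) in the joint list, 78.7 (rank 989) in replicate 2 and 61.0 (rank 872) in replicate 3. At 520853, 2613 bp before ush-RA, it was 119 (rank 1216) jointly, 73.3 (rank 1134) in replicate 2 and 46.2 (rank 1505) in replicate 3. At 516255, 7211 bp before ush-RA, it was 96.3 (rank 1809) jointly, 49.6 (rank 2400) in replicate 2 and 43.9 (rank 1659) in replicate 3. All 3 were among the 2704 highest peaks of each replicate taken alone.

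At the ush-RC start itself the replicates differed. The joint list has a summit at 523776, 40 bp downstream of the start, with a signal of 65.7 (rank 3400), which is below the lowest IDR signal of 75.5. Replicate 2 had its summit 3 bp from the start with 64.9 (rank 1454), inside its own top 2704. Replicate 3 had no summit within 100 bp of it, and its nearest, 265 bp from that of replicate 2, had 11.3 (rank 22700). A peak at the ush-RC promoter was strong in 1 replicate of 2.

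Deep in the intron shared by the isoforms starting at or before 490835 lay another pair of IDR peaks. The summit at 510656, 12810 bp before ush-RA, had 146 (rank 811) jointly, 78.0 (rank 1004) in replicate 2 and 66.5 (rank 719) in replicate 3. Its nearest annotated start is that of the noncoding RNA lncRNA:CR46259, 8420 bp away. The summit at 512210 had 88.5 (rank 2095) jointly and 59.0 (rank 932) in replicate 3. Replicate 2 had no summit within 100 bp of it, and the nearest one, 121 bp away, had 32.8 (rank 5032). This was the weakest IDR peak of the locus and the one that was not matched in both replicates at 100 bp. With a limit of 200 bp all 11 were matched.

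The remaining IDR peak, at 472462, is outside both genes. It lies 262 bp upstream of CG4297-RC and 551 bp upstream of MED15, which encodes a subunit of the Mediator complex. Its signal was 166 (rank 634) jointly, 85.9 (rank 829) in replicate 2 and 83.6 (rank 434) in replicate 3. This peak belongs to the locus through the 5 kb margin, and the starts nearest to it are those of its neighbours.

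Density differed between stretches of ush, divided here at the cbt start and at isoform starts. From the distal ush start to the cbt start, 3.47 kb, there were 0 IDR peaks of 1 joint peak. From the cbt start to the ush-RB start, 11.1 kb, there were 5 IDR peaks of 13 joint peaks. From ush-RB to ush-RA, 32.6 kb, there were 5 of 25, and all 5 lay at 510656 or beyond it, so density also changed within this stretch. From ush-RA to the end of ush, 17.1 kb, there were 0 of 3, and the highest joint signal was 65.7. Replicates 2 and 3 had 4 and 2 relaxed peaks in that last stretch. All 10 IDR peaks within ush therefore lie before its proximal starts, outside the part of the gene transcribed from all 4.

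Several stretches were empty or nearly so. No list has a summit from the fourth exon of ush-RE at 536023 to the end of ush, over 4.54 kb, nor within MED15 or lncRNA:CR46259. None of the coding parts of ush holds a joint summit, and those of cbt hold 1. Between the IDR summits at 490247 and 510656, 20.4 kb apart, there were 16 joint peaks of signal 20.0 to 40.2, with 11 peaks in replicate 2 and 14 in replicate 3. Outside the locus the next IDR summit was 1.74 kb to the left of 472462, in CG4297, but 52.3 kb to the right of 522135. The genes on that side, lwr (the SUMO-conjugating enzyme), Spp (signal peptide peptidase), Ets21C (an ETS-family transcription factor) and nAChRbeta3 (an acetylcholine receptor subunit), had no IDR summit within the locus. The relaxed peak at 540605, in the 3' UTR of lwr and just past the end of ush, had 63.5 (rank 3570).

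Of the joint peaks of the locus, 11 of 45 (24.4%, Wilson 95% interval 14.2 to 38.7%) were IDR peaks, against 9.01% of all joint relaxed peaks. The locus was chosen for this excess, so nothing is read from it. Each replicate's own 2704 highest peaks included 11 in the locus, of 41 (26.8%, 15.7 to 41.9%) in replicate 2 and of 45 (24.4%) in replicate 3. The joint peaks were called on the same replicates, so these lists are not independent of the joint one. The median signal of the IDR peaks of the locus was 146, against 113 for all IDR peaks.

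The other 34 joint peaks of the locus had signals of 19.5 to 67.3 with a median of 29.0. Just inside the limit of 75.5 were 512210 (88.5) and 516255 (96.3). Just outside were 484164 (67.3, rank 3283), 4476 bp upstream of cbt, then the ush-RC promoter peak (65.7) and the lwr peak (63.5). No locus peak fell between 67.3 and 88.5, and the other 31 ranked below 5408.

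Replicates were compared at each IDR summit. Of the 11, 10 (90.9%) had a summit within 100 bp in both replicates, against 2586 of all 2704 (95.6%). Taking only each replicate's 2704 highest peaks, 10 of 11 (90.9%) were in both, against 1887 of 2704 (69.8%). The locus was chosen in part for strong signal, and its IDR peaks had a median signal of 146, against 113 for all. A high share among the highest peaks follows from that choice, and nothing is read from it. The exception under both measures was 512210. The ratio of replicate 2 to replicate 3 signal had a median of 1.29 (range 0.556 to 2.27) in the locus, taking the nearest summit of each replicate. That includes the unmatched 512210, which gave the 0.556, and the lowest ratio among the matched locus peaks was 1.03. Over all IDR peaks the median was 1.41 (5th to 95th percentile 0.841 to 2.47), but there only peaks matched within 100 bp were used. The 2 medians thus rest on unlike pairings, and no difference is read from them. Replicate 2 had the higher signal at 10 of 11 locus peaks, but with scale and depth unknown, a difference in enrichment and a difference in scale between the lists cannot be told apart. The 11 peaks share a locus and are not independent, and no test was made.

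**Figure D2:**
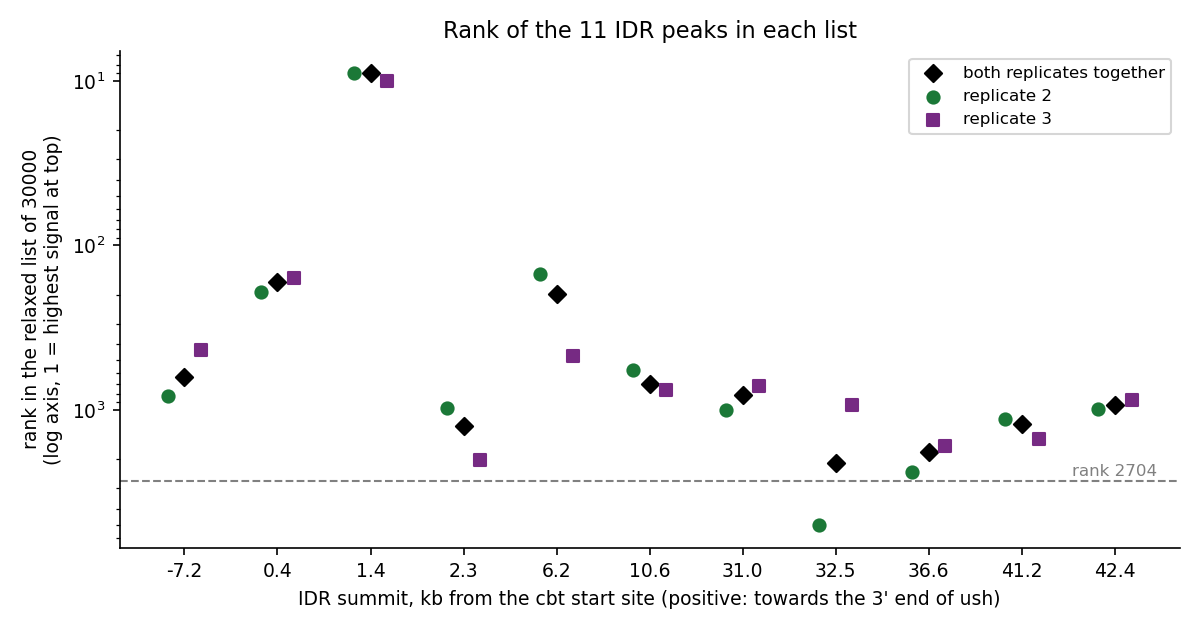
Rank (log axis, rank 1 at the top) of the 11 IDR peaks of the locus in the list of both replicates together, replicate 2 and replicate 3, each of 30000 peaks, placed by kb from the cbt start. The strongest peak ranks 9, 9 and 10, and the only point below the dashed line at rank 2704 is replicate 2 at 32.5 kb (rank 5032).

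Neighbouring IDR summits were close together. The locus was chosen for its many IDR summits, so short spacing follows from that choice and nothing is read from it. Their spacing in the locus had a median of 3978 bp (range 876 to 20409 bp, 10 gaps), against 18071 bp over all chromosomes, and 4 of 10 gaps (40%) were under 2 kb, against 11.8% of all. The joint relaxed summits were 961.5 bp apart at the median, against 1514 bp in the whole list. In replicate 2 the medians were 870 bp in the locus and 1486 bp in the list, and in replicate 3 they were 842 and 1878 bp.

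Some relaxed peaks of the locus stand close beside an IDR peak. Of the 34 joint peaks that are not IDR peaks, 5 lie 199 to 209 bp from an IDR summit, at 486082, 490448, 510855, 512417 and 516458, with signals of 23.3 to 35.6. The smallest spacing in the whole joint list is 199 bp. Gaps of 190 to 220 bp made up 8 of 44 (18.2%) in the locus and 6.54% in the whole list. In replicate 2 they made up 10% in the locus and 6.66% in its list, and in replicate 3 6.82% and 5.52%. Whether such an entry is a site of its own or the flank of the peak beside it was not tested, and it adds to the count of 45 but not to that of 11.

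Most IDR peaks of the locus lay away from transcription starts. Within 500 bp of any start were 2 of 11 (18.2%), at cbt and at CG4297, against 1520 of all 2704 (56.2%). The median distance to the nearest start was 2274 bp in the locus and 319.5 bp over all IDR peaks. With promoters taken as 200 bp, the locus had 0 such peaks. Peaks of 1 locus share its few starts, and the distances are a description of it.

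Among the 1184 IDR peaks of the genome that lie over 500 bp from a start, the site 1398 bp upstream of cbt had the highest signal. The peak at 485873 was in place 62 of that order, 490247 in place 246, 510656 in place 292 and 522135 in place 342. The lowest were 516255 and 512210, in places 730 and 878. The distal peaks of the locus are thus spread widely over that order, with 1 at its top. Strong signal beside cbt was part of the choice of the locus, so that top place is a description.

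**Figure D3:**
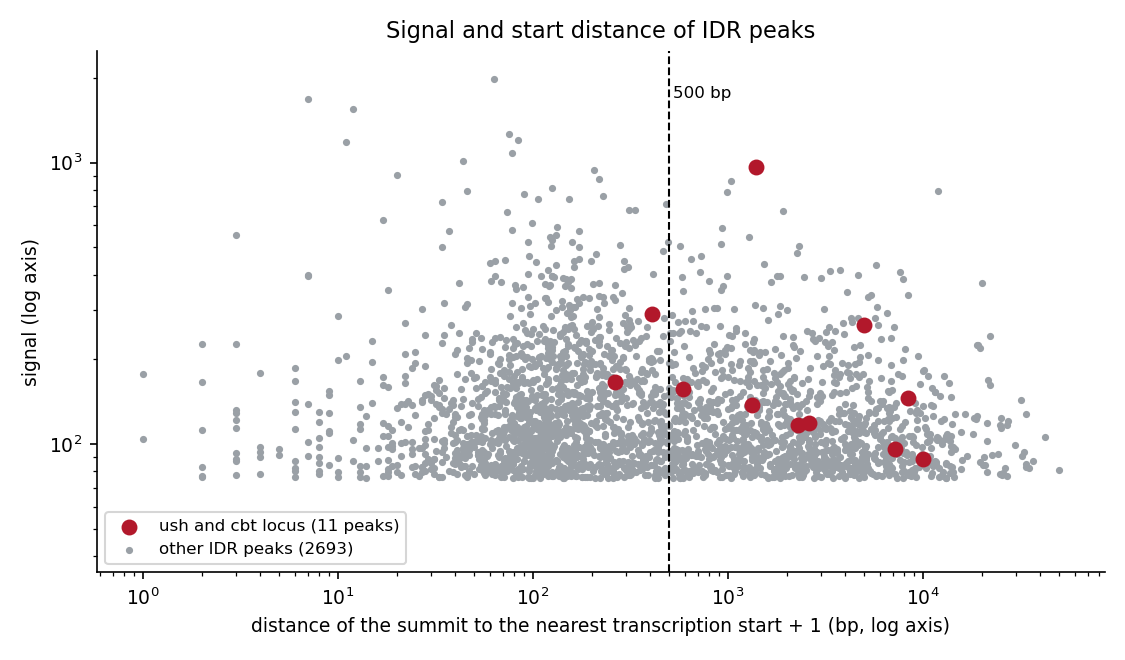
Signal (log axis) against distance to the nearest transcription start plus 1 bp (log axis) for the 11 IDR peaks of the locus (red) and the 2693 others (grey), with a dashed line at 500 bp. The red point at 966 is the highest to the right of the line, and 9 of the 11 red points lie on that side.

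The sequence windows were searched on both strands for words bound by known factors. GATAA, the core bound by GATA factors, for which the Ush protein is a cofactor, was in 6 of 11 locus windows (54.5%), against 41.8% of all IDR windows and 37.7% of joint relaxed windows outside the IDR list. The matches lay 1 bp from the summit at 510656, 5 bp at 520853, 19 bp at 522135, 58 bp at 481086 and at 512210, and 87 bp at 485873. GAGAG, the word of the GAGA factor Trl, was in 5 of 11 (45.5%), against 22.0% of IDR and 21.4% of the other windows. A word of this length is frequent in the genome, and with 11 windows a share moves by 9.09 percentage points per window.

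The GAGAG matches were concentrated in 1 window. Of 16 matches, which may overlap, 10 were at 510656, with an unbroken CT repeat over bases 129 to 149 of the sequence shown. Of all 2704 IDR windows, 3 (0.111%) had 10 or more. In the same window 57.2% of bases are soft-masked as repeats in the genome, against a median of 20.9% over all IDR windows, and how far the repeat affects read placement there was not tested. The GATAA match 1 bp from its summit stands just before the repeat, at bases 100 to 104.

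The pair of words ACAGTG and ACACTG had been picked in an earlier look at these data as frequent in IDR windows. In the locus both were found only at 522135, as 1 run, ACACTGT, in which they overlap (bases 26 to 31 and 27 to 32), so it counts as a single place. That is 1 of 11 windows for each, against 19.8% and 19.7% of all IDR windows, and 10.3% and 10.4% of the other joint windows. Neither word is in the window of the strongest peak. CAGGTA, the word of the early activator Zelda, was at 516255 alone (1 of 11, against 3.81% of IDR windows). The E-box words CAGCTG and CACGTG, the DREF core ATCGAT and the AP-1 words TGACTCA and TGAGTCA were in 0 of 11, against 9.02%, 2.14%, 12.2% and 1.92% of all IDR windows. These counts say which letters are in the windows and nothing of which factors were there.

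GC content of the 11 windows ran from 31.8 to 49.3% with a median of 38.3%. The median was 34.8% over all IDR windows and 38.3% over the other joint windows, and no test of these differences was made. The richest was 485873 (49.3%), and the strongest peak of the locus had 40.3%.

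With 5 kb margins, 5132 of 13945 protein-coding genes (36.8%) had at least 1 IDR summit. ush and CG1677 had 11 each, the most of any, and 140 genes had at least the 4 of cbt. Overlapping margins let neighbours share peaks: the strongest site counts for both ush and cbt. Within its body ush had 15.5 IDR summits per 100 kb, the highest of the 307 genes of 50 kb or longer, whose median was 0. The next were shn with 12.0, Hr4 with 10.6 and px with 8.85. That length limit was set after the data were seen. At 30 kb there are 663 genes, of which Raf, with 16.5, was denser than ush. Since ush was chosen for its many summits, its place in these orders is a description.

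By number of IDR summits, their density and the highest signal, each over the gene with 5 kb margins in the joint list alone, 5 genes were nearest to ush. CG1677 had 11 summits, 8.17 per 100 kb and a highest signal of 303, against 11, 14.8 and 966 for ush. Raf, a kinase of the MAP kinase cascade, had 9, 15.4 per 100 kb and 479. Hr4, a nuclear receptor, had 9, 11.8 per 100 kb and 253. kirre, an immunoglobulin-family adhesion protein of myoblast fusion, had 10 over a far longer gene, 2.47 per 100 kb, and a highest signal of 215. tara, a transcriptional coregulator, had 7, 15.7 per 100 kb and 515. All had a lower highest signal than ush, whose locus was chosen in part for its strong signal. Their distances to ush in SD units ran from 2.52 to 4.92. cbt was farther, at 8.80.

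**Figure D4:**
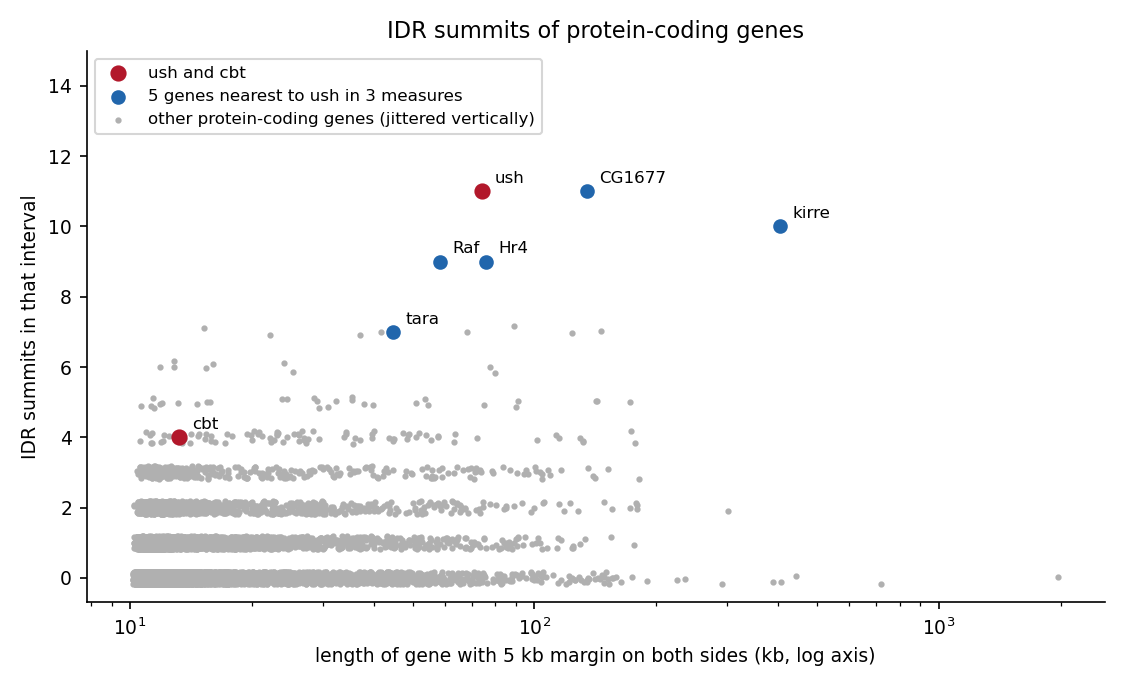
IDR summits in each protein-coding gene with its 5 kb margins against the length of that interval in kb (log axis), with ush and cbt in red, the 5 genes nearest to ush in blue and all others in grey. ush (11) and CG1677 (11) are the highest points, and cbt (4) lies among many genes of like length.

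Genes taken as partners or relatives of ush and cbt, or for processes they take part in, were read from 4 lists of 40 genes in all. Of these, 15 (37.5%) had an IDR summit in the gene or within 5 kb, close to the 36.8% of all protein-coding genes. Of the GATA factors and partners of ush, 1 of 12 did. That was GATAd, a GATA factor, with 2 summits and a highest signal of 94.0. pnr and srp, the GATA factors best known as partners of Ush, had none, and their highest joint relaxed signals were 47.4 and 68.6.

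Of the genes of germ band retraction and the amnioserosa, 3 of 8 (37.5%) had an IDR summit. tup, a LIM-homeodomain factor, had 2 with a highest signal of 133, but none within the gene. The T-box genes Doc2 and Doc3 shared 1 of signal 115. peb, zen, Kr, Doc1 and srp had none.

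Of the JNK and Dpp genes of dorsal closure, 8 of 14 (57.1%) had an IDR summit, against the 36.8% above. The kinase gene msn had 7, of which 3 lay within the gene, with a highest signal of 127. shn, a zinc finger corepressor of Dpp signalling, had 7, all within the gene, with a highest signal of 198. puc, the JNK phosphatase, had 4, of which 3 lay within the gene, with a highest signal of 115. kay (the Fos protein), dpp (the BMP ligand) and tkv (its receptor) had 1 each, at 106, 129 and 78.9. The Smad genes Mad and Med had 1 each, at 249 (rank 239) and 400 (rank 77). Of these 8, 7 had a summit within the gene itself, and that of Med lay outside it, 5120 bp from its nearest start. The Med summit also lies within 5 kb of neighbouring genes and counts for them too. bsk, hep, slpr, Jra, put and zip had none. Long genes have more room for a summit, the lists were not matched for length, and no test was made.

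Of the relatives of cbt and the genes of sugar sensing, 3 of 7 (42.9%) had an IDR summit. luna and dar1, of the Kruppel-like factors, had 2 each with highest signals of 91.2 and 121. bigmax, the partner of the sugar sensor Mondo, had 1 of 188 (rank 482), 146 bp from its start. That summit lies outside the gene and counts for a neighbouring gene too. bigmax is the only one of the 40 genes with an IDR summit at a promoter, against 2004 of 13945 genes. Mondo, sug, klu and Klf15 had none. Among the 15 genes with a summit none reached the signal of 966 beside cbt, for which the locus was in part chosen.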

How the data were processed

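ChIP-seq peak lists of 2 biological replicates, 1 group, were used. Per the labels and the file list, each replicate, and both together, had relaxed peaks called with a control as input to IDR. On the aligner, peak caller, IDR threshold and depth nothing is given in the sources used here. The signal of each peak, and the −log10 q-value (not printed here), are the authors' deposited values. The 2704 IDR peaks are those of highest signal in the joint list. Only the dm6 lists were used. The dm3 lists were not used here.

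Summits, ranks by signal, spacing and start distances were computed with Python 3.11.15, pandas 2.3.3 and numpy 2.4.6. Intervals (Wilson, 95%, counting error only) came from the formula written out in Python, and plots were made with matplotlib 3.10.9. Genes and isoform starts came from Ensembl release 115 without transposable elements, and sequence from the RefSeq Release 6 genome, 100 bp to each side of the summit. Replicate summits matched within 100 bp. The functions were tested on simulated data.

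The members, gene lists, motifs and alternatives were chosen with earlier results of these data known. Named are ush, cbt, genes overlapping the locus, list members with an IDR summit, and the 5 genes nearest to ush in 3 measures, each scaled by its SD over genes with an IDR summit. px, shn in the order of long genes, pnr, srp and the list members without a summit were named after their values were seen.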

Additional observations from a re-analysis of the deposited data

How the results depend on the processing

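Of 35 alternatives for counts, ranks and spacing, 30 kept their value within the limits set, and 27 of 36 did so for motif counts. Leaving a replicate out meant taking the other's own list, cut to as many of its highest peaks as there are IDR peaks. These sets are not IDR peaks. In them the rank of the strongest peak was 9 to 10. The median spacing of those highest peaks in the locus was 4139.5 bp in replicate 2 and 3940.5 bp in replicate 3. For the IDR summits it was 3978 bp. Promoters taken as 200 bp gave 0 IDR summits in place of 2, and list genes with an IDR summit within 500 bp of a start numbered 1 in place of 15. At 30 kb, a limit chosen after seeing the data, the long genes at least as dense as ush, with ush itself counted, numbered 2 in place of 1. They were Raf and ush at 30 kb, and ush alone at 50 kb. Motif windows of 50 bp to each side gave 3 of 11 for both GATAA and GAGAG and 0 for ACAGTG and ACACTG. Windows of 200 bp gave 8 for GAGAG, 3 for CAGCTG, 2 for CACGTG and 2 for ACACTG. Among the highest peaks of replicate 3 alone, CAGCTG was in 1 window of the locus. No paired analysis was possible because there is 1 group. The lists carry no read counts, so depth is unknown, and the 2 replicates show only whether a peak was seen again.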
